A study of Homo sapiens with 14 samples.

Results

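ALB and AGR2, the genes of 2 secreted proteins, were examined in 3 human prostate cancer cell lines treated with a Mediator kinase inhibitor. They were 2 of the 62703 genes in the count table and were taken from it by gene name. Both had been chosen by their measured log2 fold changes in 22Rv1, where they were far lower after treatment, so their values in 22Rv1 and the differences in level and response between 22Rv1 and LNCaP are given as a description, with no test. LNCaP, 22Rv1 and PC3 cells were treated for 3 days with 1.5 µM SEL120-34A, an inhibitor of the kinases CDK8 and CDK19, or with dimethylsulfoxide (DMSO), its solvent. LNCaP responds to the prostate cancer drug enzalutamide and 22Rv1 resists it. Each arm was sequenced as 3 libraries in LNCaP and in 22Rv1 and as 1 library in PC3. Each line is a single established culture, and the study's methods speak in general of biological replicates. The labels do not tie the 3 libraries of an arm to separate cultures, so p-values measure only the spread between these libraries, which may be technical. The culture protocol in the labels names 22Rv1 for all samples, and the line of each library was taken from its title and cell line label.

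Albumin is the main protein of blood plasma, where it binds fatty acids, hormones and drugs. It is made and secreted by hepatocytes, and its mRNA is not a usual product of prostate epithelium. The transcription factors C/EBP and NF-Y are textbook binders of its promoter. AGR2, anterior gradient 2, belongs to the protein disulfide isomerase family, whose members form and rearrange disulfide bonds in the endoplasmic reticulum. It is needed to fold intestinal mucin, and in several carcinomas, prostate cancer included, part of it is secreted. CDK8 and CDK19 are alternative kinases of the Mediator complex, which links enhancer-bound transcription factors to RNA polymerase II.

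ALB (ENSG00000163631.17 in the count table, ENSG00000163631.18 in the annotation used here) lies on the plus strand of chromosome 4 (GRCh38, 73397114 to 73421482) and AGR2 (ENSG00000106541.12) on the minus strand of chromosome 7 (16791811 to 16833433). In GENCODE release 44, ALB has 19 annotated transcripts, with 15 exons in the reference one, and AGR2 has 7, with 8 exons in the reference one. Neither gene overlaps another. The nearest gene to ALB is AFP, its fetal paralog, 9655 bases away, and the nearest to AGR2 is TSPAN13, 7274 bases away. The libraries were 3′ tags, so they gave 1 value per gene and no isoform or splicing information.

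The 250 bases upstream of each reference transcript are shown because the 2 genes were lower together in 22Rv1, and only the ALB window held any of the motifs searched. Both genes were matched by symbol to RefSeq promoter entries on GRCh38.p14, at chr4:73404037-73404286 on the plus strand for ALB and chr7:16805000-16805249 on the minus strand for AGR2. Capitals mark matches on either strand to the CCAAT box, which NF-Y binds.
ALB: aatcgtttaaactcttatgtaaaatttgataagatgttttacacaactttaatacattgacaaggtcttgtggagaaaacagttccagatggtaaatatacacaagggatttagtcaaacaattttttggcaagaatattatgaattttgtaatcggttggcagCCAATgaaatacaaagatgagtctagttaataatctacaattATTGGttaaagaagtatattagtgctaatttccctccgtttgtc
AGR2: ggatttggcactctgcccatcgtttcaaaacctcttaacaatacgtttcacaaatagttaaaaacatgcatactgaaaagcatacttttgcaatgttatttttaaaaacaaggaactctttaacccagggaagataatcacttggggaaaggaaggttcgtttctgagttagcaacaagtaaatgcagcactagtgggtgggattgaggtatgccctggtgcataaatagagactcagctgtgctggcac
The ALB window held CCAAT at -86 to -82 from the transcript start and, on the opposite strand, at -44 to -40, and 32% of 35116 human promoter windows of that length held at least 1 such match. The AGR2 window held none. Neither window held a TATA box spelled TATAAA, found in 10.7% of windows. Forkhead sites spelled TGTTTAC (2.98% of windows) or TGTTTGC (3.23%) and an unfolded protein response element spelled TGACGTGG (0.612%) were searched on both strands as well and gave no match. These matches describe the letters in the windows and are not evidence of binding.

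Levels are given as CPM, that is, counts scaled to a common library size with edgeR's TMM factors. Total counts ranged from 246063 to 909176 per library, and all 3 treated libraries of 22Rv1 (246063 to 368778) were shallower than their controls (476455 to 777207). A library in which a gene had no counts could have held it at up to 3.27 CPM in the deepest and 12.9 CPM in the shallowest library, taking 3 counts as the floor. KLK3, which encodes prostate-specific antigen, was at 1218 ± 167 CPM in LNCaP DMSO (SD, n = 3), at 20.4 ± 9.97 in 22Rv1 DMSO and at 7.62 and 10.5 in the PC3 libraries. The summed level of 10 prostate luminal markers ran from 2689 to 3652 CPM in LNCaP, from 625 to 801 in 22Rv1 and from 102 to 125 in PC3, where TRPM8 had no counts and KLK3 had 7 and 6. A sum of 6 epithelial markers was at 1183 to 4065 CPM in all libraries. A list of 6 mesenchymal and PC3-type markers, drawn up in part as genes of PC3, was at 4183 and 4215 CPM in PC3 and at 34.0 to 132 elsewhere. The sum of 10 stromal, endothelial and blood markers was at 92.9 and 96.9 in PC3 and 3.74 to 21.0 elsewhere. Of these 10, 7 had no counts in PC3 DMSO and 8 had none in PC3 SEL120-34A. Replicate libraries differed from each other by more than counting error (lowest chi-square per degree of freedom 1.33), so none was treated as a duplicate.

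ALB mRNA was high in 22Rv1 and near the counting floor in LNCaP and PC3. The 22Rv1 DMSO libraries held 346, 388 and 610 ALB counts, or 679, 726 and 728 CPM. In LNCaP, the DMSO libraries held 3, 3 and 7 counts and the SEL120-34A libraries 3, 2 and 2. The PC3 libraries held 1 count in DMSO and 3 in SEL120-34A. Every 22Rv1 library thus stood above every library of the other lines, whose counts were at the floor in all but the third LNCaP DMSO library. The 22Rv1 DMSO mean was 711 ± 27.5 CPM (SD, n = 3) and the LNCaP DMSO mean 7.29 ± 2.82, a fitted difference of 6.57 ± 0.23 on the log2 scale (SE). It rests on 13 LNCaP counts in all, and was 6.25 without the first LNCaP DMSO library and 6.94 without the third.

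In 22Rv1, ALB was lower after SEL120-34A in every library. The treated libraries held 42, 33 and 59 counts, or 116, 142 and 168 CPM. Their mean was 142 ± 26.3 CPM (SD, n = 3). These values were 16.3%, 19.9% and 23.7% of the DMSO mean, and the highest treated library lay far below the lowest control. The fitted change was -2.31 ± 0.16 on the log2 scale (SE), or 4.97-fold lower, the 13th lowest of the 7086 genes tested. With all libraries thinned to the depth of the smallest, it was -2.26. Even so, treated 22Rv1 cells held more ALB mRNA than LNCaP or PC3 cells in either arm. In bulk RNA, fewer cells with the transcript and less transcript per cell cannot be told apart.

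AGR2 was present in all 3 lines, in an order unlike that of ALB. The LNCaP DMSO libraries held 206, 79 and 123 counts, or 290, 207 and 172 CPM. The 22Rv1 DMSO libraries held 72, 55 and 110 counts, or 141, 103 and 131 CPM. PC3 DMSO had 285 counts, or 310 CPM. The 22Rv1 controls were therefore the lowest of the untreated libraries, with a mean of 125 ± 19.9 CPM (SD, n = 3) against 223 ± 60.7 in LNCaP and no overlap between those groups. The fitted difference was -0.84 ± 0.17 on the log2 scale (SE). Both genes were non-overlapping between the DMSO arms of the 2 lines, ALB higher in 22Rv1 and AGR2 lower, against 28.9% of the genes tested in the first direction and 27.5% in the second.

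In 22Rv1, AGR2 was also lower in every treated library. The counts were 16, 8 and 17, or 44.1, 34.3 and 48.5 CPM, with a mean of 42.3 ± 7.24 (SD, n = 3). This was 35.2%, 27.4% and 38.7% of the DMSO mean. The fitted change was -1.52 ± 0.26 on the log2 scale (SE), or 2.87-fold lower, the 47th lowest of 7086, and -1.40 after the same thinning. Neither gene overlapped between the arms, as was so in this direction for 9.98% of the genes tested, a count that the choice of the 2 genes fixed (edgeR called 1.55% of all genes lower and 4.15% higher in 22Rv1, or 110 and 294 genes, against 231 and 144 with library totals without TMM).

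**Figure D1:**
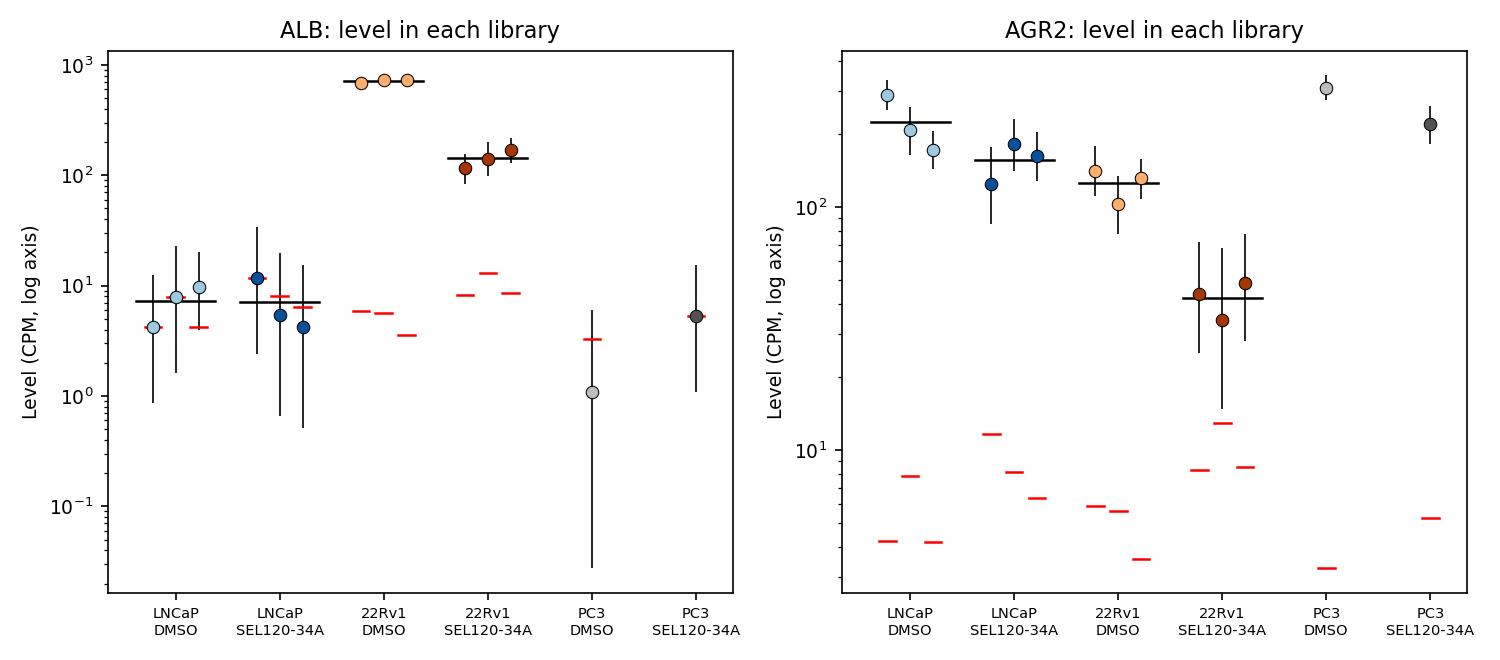
ALB (left) and AGR2 (right) in each of the 14 libraries, as CPM on a log axis. Points are libraries with exact 95% Poisson intervals (counting error only), black lines are means of the groups with 3 libraries, and red dashes mark the level of 3 counts in that library. ALB sits at 679 to 728 CPM in 22Rv1 DMSO and at 116 to 168 in treated 22Rv1, and at or near the red dashes elsewhere, whereas AGR2 lies above them in all libraries.

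The LNCaP comparison was not used to choose the genes and was tested with edgeR's quasi-likelihood test, adjusted over 7086 genes by the Benjamini-Hochberg method. Neither gene passed the threshold of 0.05, against 2.77% of all genes tested (0.776% lower and 1.99% higher), and DESeq2 and limma called neither. One of the 2 had an unadjusted p under 0.05, as did 956 of the 7086 genes.

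That gene was AGR2. The treated LNCaP libraries held 32, 67 and 77 counts, or 125, 182 and 163 CPM, with a mean of 156 ± 28.9 (SD, n = 3). They were 55.9%, 81.4% and 72.9% of the DMSO mean, and 2 of the 3 lay below all controls. The second treated library, at 182 CPM, overlapped with the third control at 172, so AGR2 was not among the 9.4% of genes whose treated LNCaP libraries all lay below the controls (9.74% all lay above). The fitted change was -0.47 ± 0.18 on the log2 scale (SE), with a 95% interval from -0.83 to -0.10, an unadjusted p of 0.0141 and an adjusted p of 0.201. An exact two-sided permutation test on log2 CPM gave p = 0.2, where 0.1 is the smallest that 3 against 3 libraries allow. The size of the change rested on the first control library, without which it was -0.20 (adjusted p = 0.732), and over all alternatives the adjusted p ran from 0.0947 to 0.732.

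ALB in LNCaP was too low to measure a response. The treated arm held 7 counts in all and the control arm 13, a depth-corrected ratio of 0.885 with an exact 95% interval from 0.299 to 2.39 for counting error. The fitted change was -0.14 with an adjusted p of 0.962, and its sign turned when the third control library (0.23) or the third treated library (0.19) was left out.

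PC3 had 1 library per arm, so its values compare 2 libraries and carry no test. AGR2 went from 285 counts (310 CPM) in DMSO to 125 counts (219 CPM) in SEL120-34A, a ratio of 0.706 with an exact 95% interval from 0.568 to 0.875 for counting error. It did not reach a ratio of 0.5, which 3.78% of the 8205 genes with at least 20 counts in the 2 libraries reached or passed (2.25% were at a ratio of 2 or higher). The share of genes at a ratio of 0.706 or lower was not counted. For ALB both PC3 libraries were at or under the floor and no ratio is given. AGR2 was thus lower in the treated arm of each line, by a ratio of summed counts of 0.344 (0.241 to 0.481) in 22Rv1, 0.709 (0.591 to 0.849) in LNCaP and 0.706 in PC3. These intervals are for counting error only and leave out the spread between libraries. That of 22Rv1 describes the comparison that chose the gene and is not a test. In LNCaP, where replicates allow a test that the choice of genes did not affect, the change did not pass the threshold. The fitted LNCaP effect minus the 22Rv1 effect was 1.05 ± 0.32 for AGR2 and 2.18 ± 0.71 for ALB on the log2 scale (SE).

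**Figure D2:**
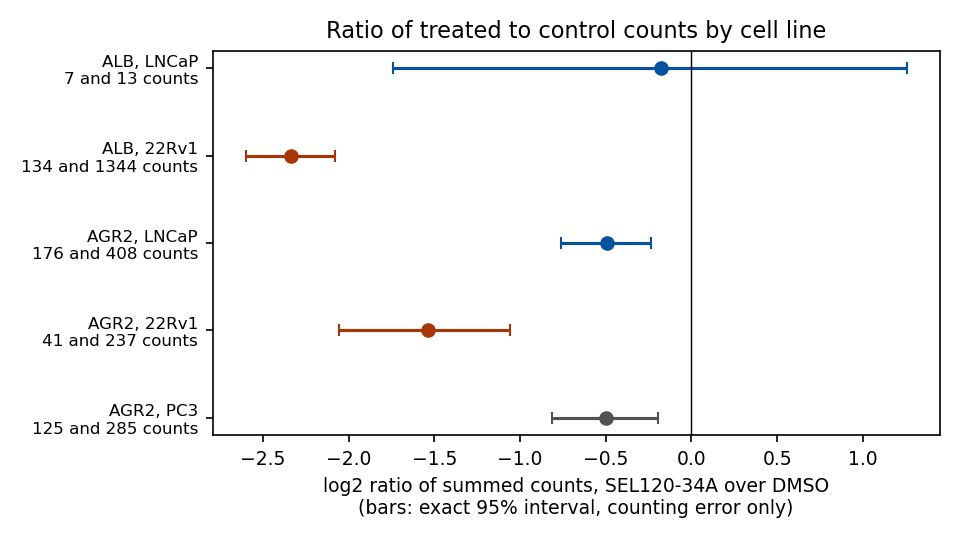
Ratio of treated to control counts of ALB and AGR2 in each line, summed over the libraries of an arm and corrected for depth, on a log2 axis. Bars are exact 95% intervals for counting error only, so they do not show the spread between replicates. AGR2 in LNCaP (0.709) and PC3 (0.706) has nearly the same ratio, both genes are lowest in 22Rv1, and ALB in PC3, with 1 and 3 counts, is left out.

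Ordered by level, ALB was at 711 CPM in 22Rv1 DMSO and 142 in 22Rv1 SEL120-34A, with no overlap between these or with any other group. The other groups, at 7.29 (LNCaP DMSO), 7.11 (LNCaP SEL120-34A), 5.26 (PC3 SEL120-34A) and 1.09 (PC3 DMSO), could not be ranked at this depth. AGR2 was at 310 CPM in PC3 DMSO, 223 in LNCaP DMSO, 219 in PC3 SEL120-34A, 156 in LNCaP SEL120-34A, 125 in 22Rv1 DMSO and 42.3 in 22Rv1 SEL120-34A. Only the lowest of these AGR2 groups was clear of its neighbour: the 2 PC3 values had no replicates, both LNCaP arms overlapped, and LNCaP SEL120-34A (125 to 182) overlapped with 22Rv1 DMSO (103 to 141).

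**Figure D3:**
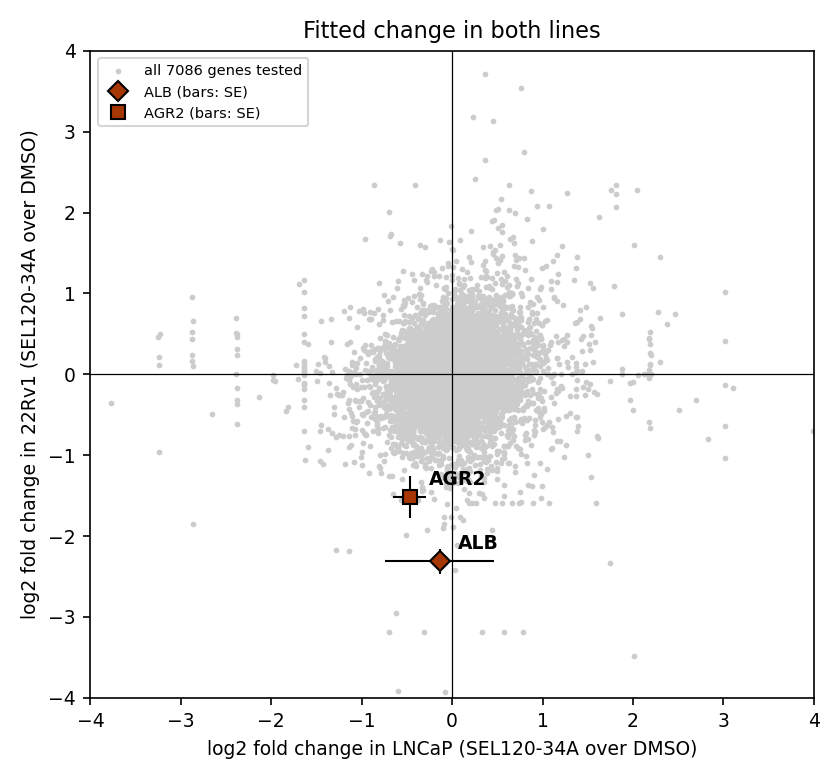
Fitted log2 fold change after SEL120-34A in LNCaP (horizontal) and 22Rv1 (vertical) for the 7086 genes tested in grey, with ALB (diamond) and AGR2 (square) and bars of 1 SE. Both sit near the lower edge in 22Rv1, at -2.31 and -1.52. In LNCaP they are at -0.14 and -0.47, with a wide bar for ALB because of its few counts. Columns and rows of aligned points are genes with almost no counts in one line, and 1 gene lies outside the axes.

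ALB and AGR2 did not follow each other across the lines. Over the 14 libraries the log2 CPM values had Pearson r = -0.61 and Spearman rho = -0.75, as the line with high ALB had the lowest AGR2. Within the 6 libraries of 22Rv1 r was 0.96 (rho 0.77), which the shared treatment contrast fixes, and within the 6 of LNCaP it was -0.62 (rho -0.37). These are descriptions, with line, treatment and depth shared among the points.

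ALB was accompanied by few other liver genes in 22Rv1. Of 54 other plasma proteins that hepatocytes secrete, 16 had any count in 22Rv1 DMSO and 5 had 10 or more over the 3 libraries, with a summed level of 94.2 to 101 CPM. A list of 20 hepatocyte markers was at 37.4 to 56.1 CPM in those libraries once ALB was set aside, and 14 of the 20 had no counts, among them APOA1, APOB, TF, SERPINA1, HP and the fibrinogen genes. After SEL120-34A the sum of these markers in 22Rv1 was 30.0 to 48.5 CPM and 14 were again at 0, so the markers other than ALB overlapped between the arms. Their part in the ALB result was not tested.

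Of the albumin family, GC was measurable in 22Rv1 along with ALB, and AFP and AFM were at or near 0. AFP, the fetal albumin, had 1 count in a 22Rv1 DMSO library and none elsewhere, and AFM, afamin, had none at all. GC, the vitamin D-binding protein and a more distant member on the same chromosome, had 6, 7 and 12 counts in 22Rv1 DMSO and 5, 6 and 5 in treated 22Rv1, or 13.1 ± 1.27 and 17.9 ± 6.78 CPM (SD, n = 3). GC had at most 2 counts in any library of the other lines and was too low to be tested, and its treated libraries were not below the controls.

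Only 2 of the 54 plasma protein genes passed the filter on low counts, AMBP, the precursor of alpha-1-microglobulin and bikunin, and APOC1, an apolipoprotein. Neither passed in 22Rv1, where 5.7% of all genes tested did. AMBP was at 36.5 and 34.3 CPM in DMSO and SEL120-34A (log2 change -0.05 ± 0.35, SE, adjusted p = 0.961) and APOC1 at 23.7 and 31.2 (0.40 ± 0.41, adjusted p = 0.656). Neither had an unadjusted p under 0.05 in 22Rv1, and DESeq2 and limma called neither there. In LNCaP both had at most 1 count over an arm, and their changes are not read. PC3 had a different set of liver genes without ALB, with SERPINA1, the alpha-1-antitrypsin gene, at 31.6 CPM, SERPIND1 at 26.1 and RBP4 at 22.9 in DMSO, each chosen after its values were seen.

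Of the liver regulators of the HNF4 family, HNF4A, a central hepatocyte regulator, had a total of 1 count over the 14 libraries. HNF4G had 4, 8 and 7 counts in 22Rv1 DMSO, 5, 0 and 2 in treated 22Rv1, 5 and 2 in PC3 and none in LNCaP, so neither could be tested.

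FOXA1, the pioneer factor of prostate and liver epithelium, was in all 3 lines. In 22Rv1 it was at 446 ± 50.6 CPM in DMSO and 323 ± 30.7 in SEL120-34A (SD, n = 3), with no overlap (so too, in this direction, for 9.98% of all genes tested) and a log2 change of -0.44 ± 0.14 (SE, adjusted p = 0.0632). FOXA2 had 52 and 48 counts in PC3, at most 2 in a LNCaP library and none in 22Rv1. CEBPB, at 67.1 and 98.5 CPM in 22Rv1, had a fitted change of 0.57 ± 0.22 (adjusted p = 0.131).

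Of the 32 liver and gut transcription factors listed, 14 could be tested. In 22Rv1 none was called by edgeR, DESeq2 or limma, 4 had an unadjusted p under 0.05 (1351 of the 7086 genes did), and the median log2 change was -0.37 against 0.00 over all genes. Of all genes tested, edgeR called 5.7% in 22Rv1 and 2.77% in LNCaP. In LNCaP 1 of the 14 was called, CEBPA, a C/EBP factor of hepatocytes, which rose from 47.0 ± 4.74 to 85.6 ± 14.4 CPM (SD, n = 3; log2 change 0.87 ± 0.24, SE, adjusted p = 0.0344). In 22Rv1 its fitted change was 0.90 ± 0.46 (adjusted p = 0.293), with no overlap between the arms (so too, in this direction, for 13.1% of all genes tested), and the difference between lines was -0.03 ± 0.35. The LNCaP call was lost without any 1 of the 6 LNCaP libraries, with changes from 0.75 (first treated library left out) to 0.96 (the third control) and adjusted p from 0.0705 to 0.213, and DESeq2 and limma did not make it. The difference between lines was called for none of the 14 by any of these tools, with 1 at an unadjusted p under 0.05.

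22Rv1 also held mRNAs of intestinal and liver epithelium, and MUC13 and VIL1 among them were higher in the treated libraries. Of 29 such genes 7 had 10 or more counts in 22Rv1 DMSO and 1 had in LNCaP DMSO, and their summed level was 292 to 314 CPM in 22Rv1 DMSO and 438 to 502 in treated 22Rv1, against 16.8 to 29.8 in LNCaP and 1077 and 1156 in PC3. In the DMSO arm of each line 17 of the 29 had no counts. The PC3 and 22Rv1 sums came mainly from different genes. In PC3 DMSO, TM4SF1 was at 734 CPM and LGALS3 at 224, both named after their values were seen. VIL1 had 0 counts there, and MUC13 and TSPAN8 were at 3.27 and 2.18 CPM. MUC13, a membrane mucin of the gut, rose from 19.8 ± 5.66 to 70.8 ± 15.4 CPM (SD, n = 3) in 22Rv1, with 9, 14 and 13 counts in the controls and 20, 20 and 25 in the treated libraries. Its log2 change was 1.84 ± 0.34 (SE, adjusted p = 3.66e-04), and limma called it as well, while DESeq2 gave it no adjusted p. VIL1, the microvillus protein villin, rose from 83.8 ± 16.6 to 141 ± 11.5 CPM (0.78 ± 0.22, adjusted p = 0.0263). The VIL1 call was lost without the first or the third control library (0.74 and 0.60) or the first or second treated library (0.81 and 0.73), and neither DESeq2 nor limma made it. All 5 genes of the list that could be tested had a positive fitted change in 22Rv1, with a median of 0.72. MUC13 and SPINK1 passed the low-count filter only through their treated 22Rv1 libraries. The filter thus favored a rise in them, and the MUC13 call, the shared sign and the median are not independent of it. Over all genes tested, 4.15% were called higher and 3566 of 7086 had a positive change. TSPAN8, at 126 and 141 CPM, and SPINK1, at 20.8 and 36.8, were among those that did not pass. In LNCaP these 5 genes were near the floor and their changes are not read.

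**Figure D4:**
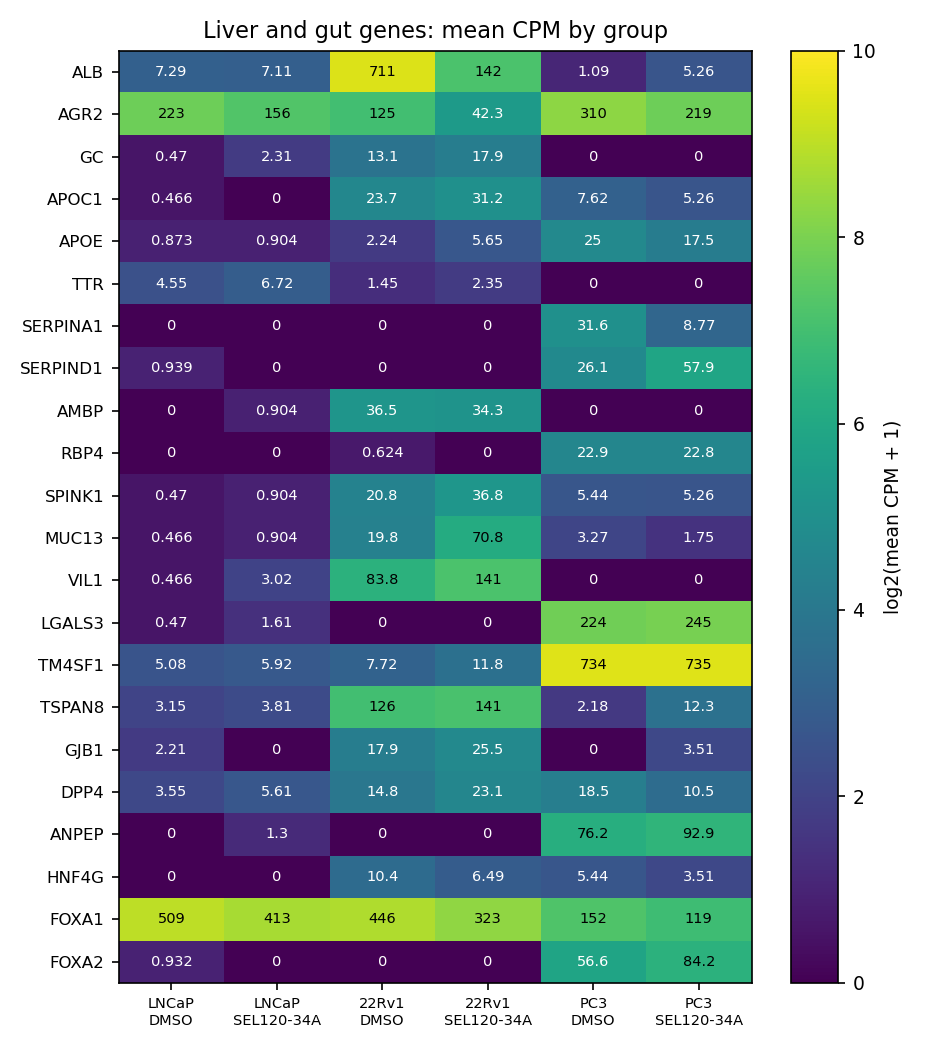
Mean CPM by group, on a log2(CPM + 1) color scale with the value in each cell, for ALB, AGR2, plasma protein and gut genes of the lists with at least 20 counts over the 14 libraries, and HNF4G, FOXA1 and FOXA2. Other listed transcription factors are not shown. The 2 columns of 22Rv1 differ from those of LNCaP in ALB, AMBP, APOC1, GC, VIL1, MUC13, TSPAN8, SPINK1 and GJB1, among others. Those named are at 7.29 CPM or lower in both LNCaP arms. Within 22Rv1, ALB goes from 711 to 142 and AGR2 from 125 to 42.3, while VIL1 goes from 83.8 to 141 and MUC13 from 19.8 to 70.8.

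In the protein disulfide isomerase family, to which AGR2 belongs, 1 gene was called in each line. Of the 28 other listed members and partner oxidases 19 could be tested, so the share called was 5.26% in each line, against 5.7% of all genes in 22Rv1 and 2.77% in LNCaP, with a median log2 change of 0.00 in 22Rv1 and -0.10 in LNCaP. In 22Rv1, PDIA4, an isomerase also called ERp72, fell from 853 ± 45.0 to 576 ± 63.7 CPM (SD, n = 3; log2 change -0.55 ± 0.12, SE, adjusted p = 0.00393), and DESeq2 and limma made the same call. In LNCaP its fitted change was -0.42 ± 0.14 (adjusted p = 0.126). The change in LNCaP that passed was a rise of ERP29, an ER chaperone with a thioredoxin-like fold, from 165 ± 37.8 to 264 ± 9.64 CPM (0.71 ± 0.16, adjusted p = 0.00963), which DESeq2 called and limma did not. Without the first LNCaP control library it was 0.55 with an adjusted p of 0.102.

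The closest relatives of AGR2 gave no signal. AGR3, its neighbour on chromosome 7, had 1 count in a control and 1 in a treated library of 22Rv1 and none elsewhere. TXNDC12, which encodes the related ERp18, was listed at 0 in all 14 libraries. It overlaps 4 other annotated genes, 2 of them on its own strand, and its 0 is not read as absence. The difference between lines was called for none of the 19 family genes by edgeR, DESeq2 or limma, and none had an unadjusted p under 0.05.

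Of 29 mucins, trefoil peptides and other genes of the secretory program in which AGR2 works, 8 could be tested. None was called in 22Rv1 by edgeR, DESeq2 or limma, with 1 at an unadjusted p under 0.05, as had 1351 of all 7086 genes. EdgeR called 5.7% of all genes tested in 22Rv1 and 2.77% in LNCaP. XBP1, the transcription factor of the unfolded protein response, was at 245 ± 24.9 and 221 ± 39.2 CPM in the 22Rv1 arms (SD, n = 3; log2 change -0.12 ± 0.16, SE, adjusted p = 0.759) and at 300 ± 55.3 and 298 ± 12.1 in those of LNCaP. In LNCaP, CREB3L4, an ER-bound transcription factor of prostate, fell from 138 ± 9.95 to 79.5 ± 22.2 CPM (-0.79 ± 0.21, adjusted p = 0.0269). The CREB3L4 call was lost without any 1 of the 3 controls (-0.76, -0.76 and -0.85) or without the second (-0.61) or the third (-0.81) treated library, and DESeq2 and limma did not make it.

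SPDEF, an ETS factor of goblet and prostate epithelium, had opposite fitted changes in the 2 lines. In LNCaP it was at 120, 110 and 103 CPM in DMSO and 74.1, 40.7 and 78.1 in SEL120-34A, with no overlap, as for 9.4% of all genes in this direction. In 22Rv1 it was at 49.1, 20.6 and 25.0 CPM in DMSO and 79.9, 55.8 and 42.8 in SEL120-34A, where the third treated library overlapped with the first control. Neither change passed (-0.76 ± 0.25, adjusted p = 0.106, and 0.98 ± 0.32, adjusted p = 0.0570), but the difference between them did (LNCaP minus 22Rv1 -1.74 ± 0.40, adjusted p = 0.0265), against 0.734% of all genes tested. Adjusted p rose to 0.0618 without the first LNCaP control, 0.103 without the second LNCaP treated library, 0.0710 and 0.0945 without the second or the third 22Rv1 control and 0.213 without the first 22Rv1 treated library.

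Albumin taken up by cells is recycled by the neonatal Fc receptor, a pair of FCGRT and beta-2-microglobulin. FCGRT had 4 to 7 counts in 22Rv1 DMSO libraries, 4 or 5 in treated ones, at most 1 in LNCaP, and 79 and 46 in PC3, so it could not be tested. B2M was at 94.8 ± 8.99 and 113 ± 7.82 CPM in 22Rv1 (SD, n = 3; log2 change 0.27 ± 0.23, SE, adjusted p = 0.569). In LNCaP it rose from 132 ± 44.1 to 221 ± 41.8 CPM (0.75 ± 0.19, adjusted p = 0.0204), though the arms overlapped. The B2M call was lost without the second or the third LNCaP control (0.72 and 0.50) or the first or second treated library (0.62 and 0.69), and DESeq2 and limma did not make it. Of the 12 genes of albumin binding and uptake 4 could be tested, B2M was the only one called in LNCaP, and none was called in 22Rv1 by the 3 tools or had an unadjusted p under 0.05 there. The edgeR calls over all genes tested were 2.77% in LNCaP and 5.7% in 22Rv1, where 1351 of 7086 genes had an unadjusted p under 0.05.

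Among 27 other secreted or membrane proteins of prostate cells, 16 could be tested, and 6 rose in 22Rv1, against 4.15% of all genes tested. This list was chosen with earlier results of these data known, so its share of calls is not independent of them and is not read as enrichment. None was called lower by edgeR, with 1, MDK, at a negative change and an unadjusted p under 0.05, and DESeq2 called 6 and limma 3 of the 16. GDF15, a stress-induced growth factor, had a log2 change of 2.26 ± 0.28 (SE) with an adjusted p of 2.51e-07. TMPRSS2, a membrane serine protease, had one of 1.89 ± 0.52 (adjusted p = 0.0246). The kallikreins KLK4 and KLK11 rose by 0.96 ± 0.15 and 0.91 ± 0.21, with adjusted p of 1.81e-05 and 0.00441. IGFBP2 and CLU were the others. TMPRSS2 had 2 to 6 counts per control library, and its call was lost without the first or the third control (1.70 and 1.50) or the first or second treated library (1.67 and 1.72).

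In LNCaP 3 of the 16 rose and 2 fell, against 1.99% and 0.776% of all genes tested. The same limit on the choice of the list holds for these shares. KLK3 fell from 1218 ± 167 to 331 ± 81.5 CPM (SD, n = 3; -1.82 ± 0.15, SE, adjusted p = 1.35e-11) and KLK2, a related kallikrein, fell as well (-1.37 ± 0.15, adjusted p = 2.85e-08). IGFBP3, which binds insulin-like growth factors, rose by 3.10 ± 0.26 (4.29 without the first control library and 2.61 without the third, both still called), KLK4 by 0.77 ± 0.16 (adjusted p = 0.00276) and GDF15 by 0.87 ± 0.20 (adjusted p = 0.0103). The GDF15 call was lost without the first (0.60) or second (0.77) LNCaP control. In 22Rv1 the fitted change of KLK3 was -0.40 ± 0.47 (adjusted p = 0.705). The difference between lines for KLK3 did not pass (-1.41 ± 0.54, adjusted p = 0.291).

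**Figure D5:**
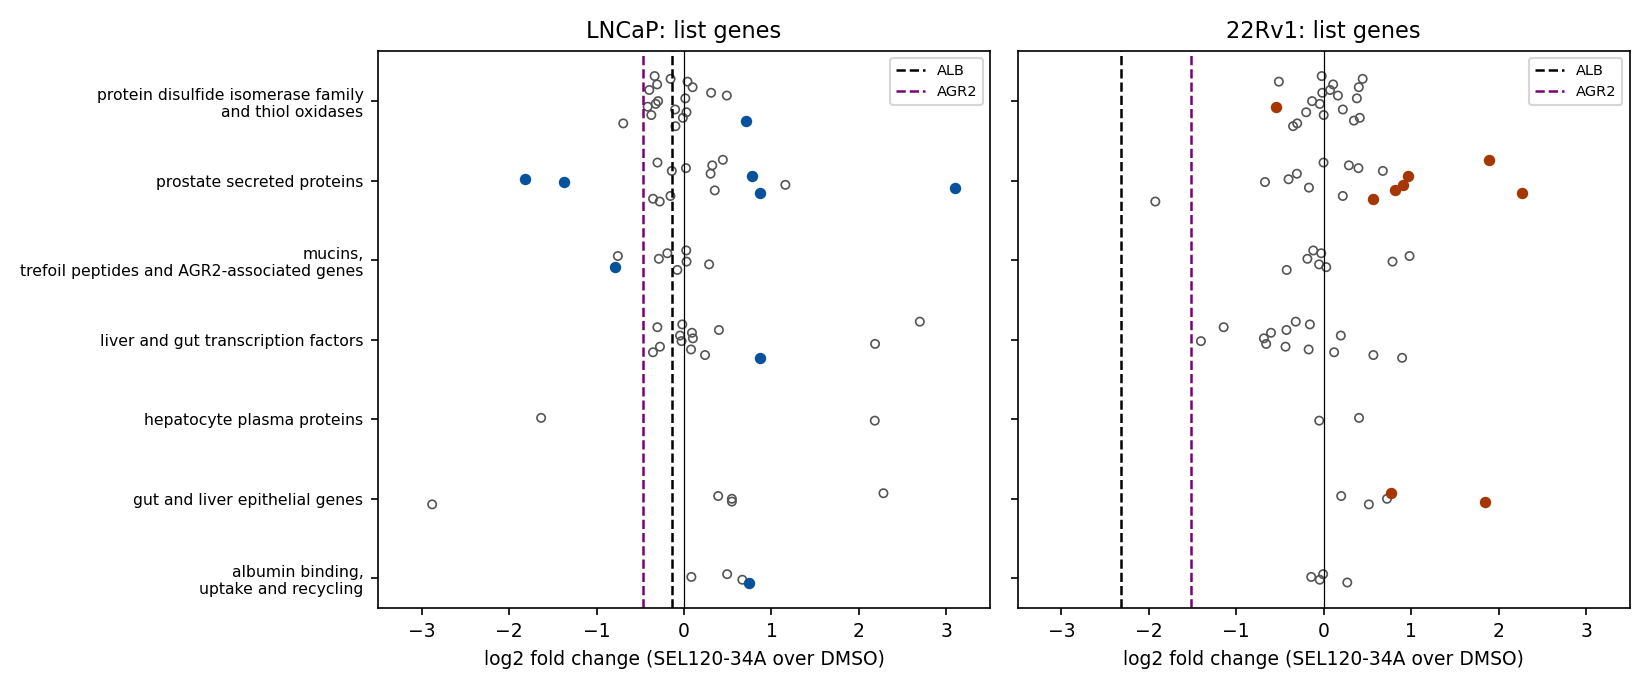
Log2 fold change after SEL120-34A of every tested gene of the 7 lists, in LNCaP (left) and 22Rv1 (right). Filled points passed edgeR's test (adjusted p under 0.05), open points did not, and dashed lines mark ALB and AGR2. In 22Rv1 the line of ALB lies to the left of every list gene and that of AGR2 to the left of all but one, ACP3, a prostatic phosphatase gene with few counts there that did not pass and is named because of its place in the plot. LNCaP points beyond 2 in the plasma protein, transcription factor and gut lists are genes with almost no counts there.

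The genes most like ALB over the 14 libraries, by Pearson correlation of log2 CPM among 9637 other genes, were SRRM4 (r = 0.980), HSPB6 (0.979), RAB7A (0.978) and UNC13A (0.971). SRRM4 is a splicing regulator of neurons and neuroendocrine prostate cancer, HSPB6 a small heat shock protein, RAB7A a GTPase of late endosomes and UNC13A a synaptic vesicle protein. SRRM4 had 19, 27 and 29 counts in 22Rv1 DMSO, 4, 6 and 5 in treated 22Rv1 and none in the other 8 libraries. HSPB6 went from 132, 95 and 233 counts to 23, 19 and 36 in 22Rv1, with at most 3 elsewhere. RAB7A differed from these in being in every library, at 267 to 290 CPM in 22Rv1 DMSO, 217 to 232 in treated 22Rv1 and 133 to 172 in the other lines.

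The genes most like AGR2 were PJA1 (r = 0.969), MCUR1 (0.948), GOLM2 (0.932), UFSP2 (0.928) and SLC25A12 (0.920). PJA1 is a ubiquitin ligase, MCUR1 a regulator of mitochondrial calcium uptake, GOLM2 a Golgi membrane protein, UFSP2 a protease of the UFM1 pathway and SLC25A12 a mitochondrial aspartate and glutamate carrier. MCUR1 was at 77.2 and 78.4 CPM in PC3, 68.1 to 74.7 in LNCaP DMSO, 58.5 to 59.6 in treated LNCaP, 44.9 to 51.0 in 22Rv1 DMSO and 21.5 to 38.6 in treated 22Rv1. PJA1 had no counts in the 3 treated 22Rv1 libraries and 3 to 11 in their controls. By Spearman correlation 2 of these 5 genes, MCUR1 and PJA1, were again among the top 5 for AGR2 and 0 of 5 for ALB.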

How the data were processed

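RNA was profiled by BRB-seq, in which samples are barcoded before pooling and the 3′ ends of transcripts are sequenced. Reads were aligned and counted by the authors with STARsolo on GRCh38.p13 and a GENCODE annotation (labels and study methods), and they deposited raw counts for 62703 genes in 14 libraries. Whether molecular identifiers were collapsed was not stated, and intervals and floors are for counting error alone. For 9638 genes log2 CPM values were deposited as well. The same genes and values (largest difference 5e-14) were obtained from the counts with edgeR's low-count filter, TMM and a prior count of 2.

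Groups and replicate numbers came from the sample labels. The 12 LNCaP and 22Rv1 libraries were fitted together with edgeR 4.0.16 in R 4.3.3, with a mean for each of the 4 groups, the low-count filter (7086 genes kept), TMM and the quasi-likelihood F-test. The fit had 8 residual degrees of freedom and a common biological coefficient of variation of 11.1%. P-values were adjusted over all 7086 genes by the Benjamini-Hochberg method, with a threshold of 0.05, and fitted changes and SE are on the log2 scale. CPM values used TMM factors over all 14 libraries. For PC3, and for sums of counts, exact 95% intervals for a ratio of Poisson counts were used, with a floor of 3 counts, and no fold is given where both arms were at or under it. Total counts were 246063 to 909176 per library. The fits were tested on simulated counts.

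The members, the 7 gene lists and the marker lists were chosen with earlier results of these data known. Besides ALB and AGR2, genes named were a fixed panel of relatives, regulators and markers, per list and line up to 4 rises and 4 falls that passed (mean count in that line 5 or higher), and the 5 genes most correlated with each member. Other names were chosen after their values were seen, and the text or the count they belong to says so. Some genes that these rules name are not reported here. Coordinates came from GENCODE release 44 and promoters from RefSeq. Each choice was also varied alone. The normalization was replaced by DESeq2 size factors or by unscaled totals, and the filter was dropped or set to at least 10 counts in every library. The replicate number was added as a block, the lines were fitted separately, PC3 was included, all libraries were thinned to the smallest, and each was left out in turn. The test was replaced by the Wald test of DESeq2 1.42.0 or by limma-trend (limma 3.58.1) on the deposited log2 values.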

Additional observations from a re-analysis of the deposited data

Results flagged for a closer look

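In 3 of the listed genes, IGFBP3 and GDF15 of the 16 tested prostate secreted proteins and SPDEF of the 8 tested mucin and secretory genes, the effect of SEL120-34A differed between the lines by edgeR's test of the difference itself, LNCaP minus 22Rv1 on the log2 scale, against 0.734% of all genes tested. The lists were chosen with earlier results of these data known, so these shares are not independent of them. The difference was 3.27 ± 0.50 (SE) for IGFBP3 (adjusted p = 1.29e-04), which went from 101, 34.0 and 16.8 CPM to 561, 436 and 365 in LNCaP and stayed between 31.4 and 41.2 in all 22Rv1 libraries. Without the first LNCaP control it was 4.48, and without the third 2.80. DESeq2 made this call, did not make that of GDF15 and gave SPDEF no adjusted p, and limma made none.

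It was -1.74 ± 0.40 for SPDEF (adjusted p = 0.0265), lower in 3 of 3 treated LNCaP libraries than in any control (as were 9.4% of all genes tested), and -1.39 ± 0.34 for GDF15 (adjusted p = 0.0399), which rose in both lines. The SPDEF call was lost without the first LNCaP control (-1.65), the second treated LNCaP library (-1.48), the second or the third 22Rv1 control (-1.54 for each) or the first treated 22Rv1 library (-1.43). The SPDEF call was also lost after thinning (adjusted p = 0.0960). The GDF15 call was lost with at least 10 counts in every library (adjusted p = 0.127), with library totals without TMM (0.0925), without the third LNCaP control (-0.88, adjusted p = 0.221), the first or the second treated LNCaP library (-1.39 and -1.36), any 1 of the 22Rv1 controls (-1.37, -1.45 and -1.27) or the second treated 22Rv1 library (-0.94, adjusted p = 0.246).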

How the results depend on the processing

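The lower levels in treated 22Rv1 kept their size in all 21 alternatives, at -2.46 to -2.16 for ALB and -1.66 to -1.40 for AGR2 on the log2 scale, and neither gene was called in LNCaP in any. Neither gene is part of the fit with at least 10 counts in every library. The ALB change in LNCaP turned to 0.085 when libraries were thinned to the smallest total, and ran from -0.56 to 0.23 over fits that left out 1 library, so its sign is not determined. The ALB level in 22Rv1 over LNCaP DMSO was 6.03 by limma-trend and 6.25 to 6.94 with 1 library left out. The ALB effect in LNCaP minus that in 22Rv1 ran from 1.77 to 2.57 with 1 library left out. The AGR2 change in LNCaP stayed negative, from -0.64 to -0.20.

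Calls over all genes in LNCaP (196) were 122 with at least 10 counts in every library, 90 after thinning, 90 by DESeq2 and 41 by limma-trend, and 87 to 239 with 1 library left out. Those in 22Rv1 (404) were 260 without a filter, 242 by DESeq2, 201 by limma-trend and 158 to 446 with 1 library left out. Among the list genes, LNCaP calls (9) were 4 with at least 10 counts in every library, 5 by DESeq2, 4 by limma-trend and 5 to 9 with 1 library left out, 22Rv1 calls (9) were 5 by limma-trend, and differences between lines (3) were 1 with at least 10 counts in every library, 1 by DESeq2, 0 by limma-trend and 1 to 4 with 1 library left out. Of the named calls, CEBPA was lost in 12 of 21 alternatives, VIL1 in 9 of 21, B2M in 9 of 22, CREB3L4 in 8 of 21, TMPRSS2 in 6 of 20, GDF15 in LNCaP in 4 of 22, ERP29 in 2 of 22 and KLK11 in 1 of 21, each in the same direction. The cause of these shifts was not tested beyond the fewer genes or libraries in some fits. Library totals without TMM moved the median of all genes by -0.09 in LNCaP and -0.15 in 22Rv1 and gave 90 lower and 99 higher calls in LNCaP (55 and 141 with TMM) and 231 and 144 in 22Rv1 (110 and 294).

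Replicate numbers were not taken as pairs: deviations of same-numbered libraries correlated at -0.05 to 0.12, and 3 of 6 libraries correlated best with their own number. With the replicate block 1 of the 14 transcription factors and 1 of the 8 mucin and secretory genes were called in 22Rv1, where 0 were without it, and over all genes there were 275 calls in LNCaP and 479 in 22Rv1, the AGR2 change in LNCaP was -0.42 (adjusted p = 0.200) and that of ALB -0.16.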
